A study of Homo sapiens with 6 samples.

Results

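The 46 genes described here encode proteins of the mitotic checkpoint, the kinetochore and the spindle, together with the kinases, ubiquitin ligase factors and condensins that act with them. They were chosen as a list of symbols, with earlier results of these data known. Cyclins, cyclin-dependent kinases and kinesins other than CENPE were left out, and all 46 were found among the 17687 genes measured. Expression was profiled on 6 Clariom S Pico arrays in A375 cells, an established line from a human melanoma, 3 days after transient transfection. The 3 siCon arrays carried RNA of cells given a negative control siRNA and the 3 siERK3 arrays RNA of cells given a predesigned siRNA against ERK3, the atypical MAP kinase encoded by MAPK6. No other treatment or genotype is named for either group. Knockdown is transient and acts on whole cultures. Whether a group's 3 arrays came from separate cultures is not given in the labels, so p-values here reflect spread between arrays that may be technical replicates.

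In a dividing cell, kinetochores built on centromeres attach chromosomes to spindle microtubules. The spindle assembly checkpoint holds the anaphase-promoting complex inactive until every kinetochore is attached, and the complex then marks securin and cyclin B for destruction. Transcripts of this machinery are known to accumulate in G2 and mitosis, under B-MYB, FOXM1 and the MuvB core, which binds a promoter element named the cell cycle genes homology region (CHR). ERK3 itself is known to be phosphorylated during mitosis. In RNA from whole cultures, fewer cells in G2 or mitosis and less of these transcripts per cell cannot be told apart.

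The promoters of these genes are shown first, because they hold a feature that many of these genes share. The CHR was searched because this class of genes is known to be under the MuvB core. A high share was therefore foreseeable from the choice of genes. RefSeq promoters (GRCh38.p14, 250 bases before to 50 after each annotated transcript start) were found for 38 of the 46 genes, 8 of them with more than 1 start. No promoter was available for BUB3, TTK, BIRC5, AURKA, FOXM1, TPX2, UBE2C and CDCA2. The CHR core TTTGAA, searched on both strands, lay in at least 1 promoter of 29 of these 38 genes, 76.3% (95% exact binomial interval 59.8% to 88.6%), against 15.9% of the 14250 measured genes in the table. Within 50 bases of the start it was found for 63.2% of the 38 genes and 4.76% of all. CCAAT, the core of the NF-Y site, was found on either strand in 71.1% of the 38 genes against 42.3% of all, and both motifs together in 52.6% against 8.22%. A gene's starts share sequence where they lie close together, and a match describes letters, not a bound site. The binomial interval treats the 38 genes as independent draws, although they were chosen as a list. The 9 genes without TTTGAA were BUB1, SPC24, CENPE, AURKB, NEK2, CDC25B, TACC3, PTTG1 and NCAPH, of which BUB1 and CDC25B held the variant TTCGAA, which 3 of the 38 genes and 2.17% of all genes held.

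**Figure D1:**
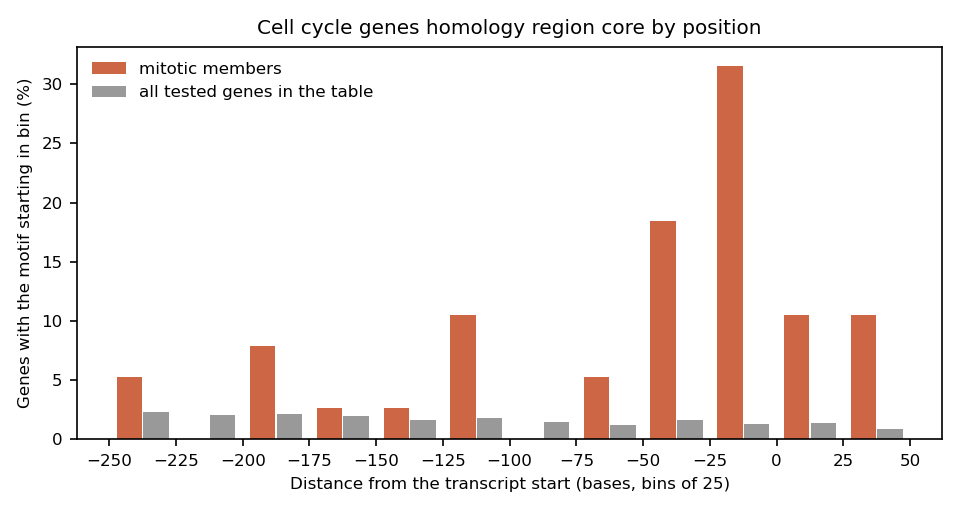
Position of the CHR core TTTGAA relative to the transcript start, in bins of 25 bases from 250 before to 50 after it, as the percentage of genes with a match starting in each bin. Orange bars are the 38 mitotic genes with a promoter in the table and grey bars all 14250 measured genes in it; 31.6% of the mitotic genes and 1.25% of all have a match in the last 25 bases before the start.

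The 120 bases before the most upstream start are printed for 9 genes, chosen after their values were seen so that genes at an unadjusted p under 0.05 (NUF2, AURKB, CDCA8, NEK2 and SMC2) stand beside genes with smaller or positive changes. Capitals mark TTTGAA and CCAAT on either strand (TTCAAA and ATTGG on the other).
NUF2, chr1:163321834-163321953, plus strand: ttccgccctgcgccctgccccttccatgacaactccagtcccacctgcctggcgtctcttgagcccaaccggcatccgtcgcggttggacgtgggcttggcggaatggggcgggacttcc
AURKB, chr17:8210250-8210369, minus strand: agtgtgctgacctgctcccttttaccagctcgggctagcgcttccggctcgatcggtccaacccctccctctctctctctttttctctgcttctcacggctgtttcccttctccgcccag
CDCA8, chr1:37692396-37692515, plus strand: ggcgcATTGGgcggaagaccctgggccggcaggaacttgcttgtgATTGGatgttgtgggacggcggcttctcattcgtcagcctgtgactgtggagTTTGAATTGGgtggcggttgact
NEK2, chr1:211675622-211675741, minus strand: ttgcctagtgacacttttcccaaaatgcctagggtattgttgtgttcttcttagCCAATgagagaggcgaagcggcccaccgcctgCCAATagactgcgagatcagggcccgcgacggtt
SMC2, chr9:104094189-104094308, plus strand: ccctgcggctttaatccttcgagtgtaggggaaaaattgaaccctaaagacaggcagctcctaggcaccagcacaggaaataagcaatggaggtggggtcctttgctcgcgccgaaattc
CENPA, chr2:26785936-26786055, plus strand: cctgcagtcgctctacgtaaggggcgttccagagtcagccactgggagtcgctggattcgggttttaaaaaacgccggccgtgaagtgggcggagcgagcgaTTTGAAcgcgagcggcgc
BUB1B, chr15:40160949-40161068, plus strand: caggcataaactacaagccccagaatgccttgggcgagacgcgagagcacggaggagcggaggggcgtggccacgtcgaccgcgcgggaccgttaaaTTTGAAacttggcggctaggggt
PLK1, chr16:23678769-23678888, plus strand: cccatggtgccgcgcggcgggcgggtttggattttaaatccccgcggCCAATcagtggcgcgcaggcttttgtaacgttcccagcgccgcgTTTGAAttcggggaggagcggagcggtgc
PRC1, chr15:90994536-90994655, minus strand: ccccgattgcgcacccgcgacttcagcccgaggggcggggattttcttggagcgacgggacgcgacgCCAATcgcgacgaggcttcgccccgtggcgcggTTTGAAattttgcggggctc
CDCA8 holds TTTGAA 23 bases before its start, sharing 1 base with the last of 3 CCAAT matches, and PLK1 and PRC1 hold TTTGAA at 29 and 20 bases before theirs, with CCAAT at 73 and 53. These 3 promoters each have TTTGAA close to the start and a CCAAT match further upstream. CDCA8 had a negative change after ERK3 knockdown, and PLK1 and PRC1 had positive ones. None of these 3 changes passed the test over all genes. NUF2 has its match at base 17 of the transcript and SMC2 a match that spans the start, both outside the printed stretch. AURKB and NEK2 have no TTTGAA, and their changes were negative but did not pass the test either. Over the 38 genes, the median log2 change (siERK3 minus siCon) was -0.16 for the 29 with TTTGAA and -0.19 for the 9 without it. The change was negative in 24 of the 29 and in 9 of the 9. BUB1 and CDC25B, counted among the 9, hold the variant TTCGAA. Genes without a promoter, BIRC5 (-0.57) and UBE2C (-0.44) among them, do not enter this split. Whether the motif bears on the change was not tested.

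MAPK6 was examined first as a check of the labels. Its signal in siERK3 was 12.2% of that in siCon, with a log2 change of -3.03 and a limma adjusted p of 0.000133, and the exact two-sided permutation p of 0.1 is the smallest that 3 against 3 arrays allow. Values are used as deposited and taken as log2 signals, and array medians over all probe sets lay between 7.06 and 7.10. A gene counted as above background on an array where it exceeded the 95th percentile of the 612 negative control probe sets. By that measure 42 of the 46 genes were above background on all 6 arrays. At the stricter 99th percentile of these controls some of the 42, BIRC5, NDC80 and SMC2 among them, were not. The 95th percentile is used from here on. SKA1, SPC25 and GTSE1 lay below it on all 6, and CDCA3 was above it on 2 siCon arrays and 1 siERK3 array. On the second principal component of all genes siCon 2 (-26.5) and siERK3 3 (-15.2) stood apart from the other 4 arrays (4.35 to 21.7). Of the melanocyte markers fixed for the check, MITF, SOX10 and EDNRB were above background and the other 6 of 9 measured, MLANA, PMEL and TYR among them, were below it on all 6 arrays. All 5 endothelial and 4 keratinocyte markers, and 4 of 6 leukocyte markers with PTPRC, were below background as well. The fibroblast marker LUM fell by 0.83 on the log2 scale, the 1 marker that passed (adjusted p = 0.0441 in limma). PDGFRB of the same list had a log2 change of 0.75 without overlap (limma's adjusted p = 0.0631), above background on 0 siCon and 3 siERK3 arrays, and 4 of the 6 fibroblast markers measured were higher in the fit. The leukocyte markers' mean log2 level ranged from 6.67 to 6.84 in siCon and 6.38 to 6.58 in siERK3, with LYZ (-0.85) and CD68 (-0.47) as the 2 above background. The 6 fibroblast markers ranged from 6.88 to 7.24 and 7.06 to 7.26. The part of these markers in the results was not tested.

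None of the 46 genes passed limma's test over all genes with Benjamini-Hochberg adjustment, against a background of 0.956% of all genes called. NUF2 came closest, with an adjusted p of 0.0796. Members above background on all arrays had fitted log2 changes of -0.65 to 0.13. The fitted change was negative for 40 of the 46 genes and positive for 6, with a median log2 change of -0.17, against -0.0014 over all genes tested, where 50.2% were negative. Taking an unadjusted p under 0.05, 10 members (21.7%) were lower and 0 higher, against 6.50% lower and 6.98% higher among all genes. In 16 members all 3 siERK3 values lay below all 3 siCon values and in 1, PLK1, above them, against 9.70% and 10.1% of all genes. Among the 7721 genes above background on all arrays these shares were 8.96% lower at that p and 15.0% with lower, non-overlapping groups, and the 42 members above background had 9 and 15 genes of these kinds. Because the members were chosen with earlier results of these data known, these shares describe the list and are not an independent test of it.

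**Figure D2:**
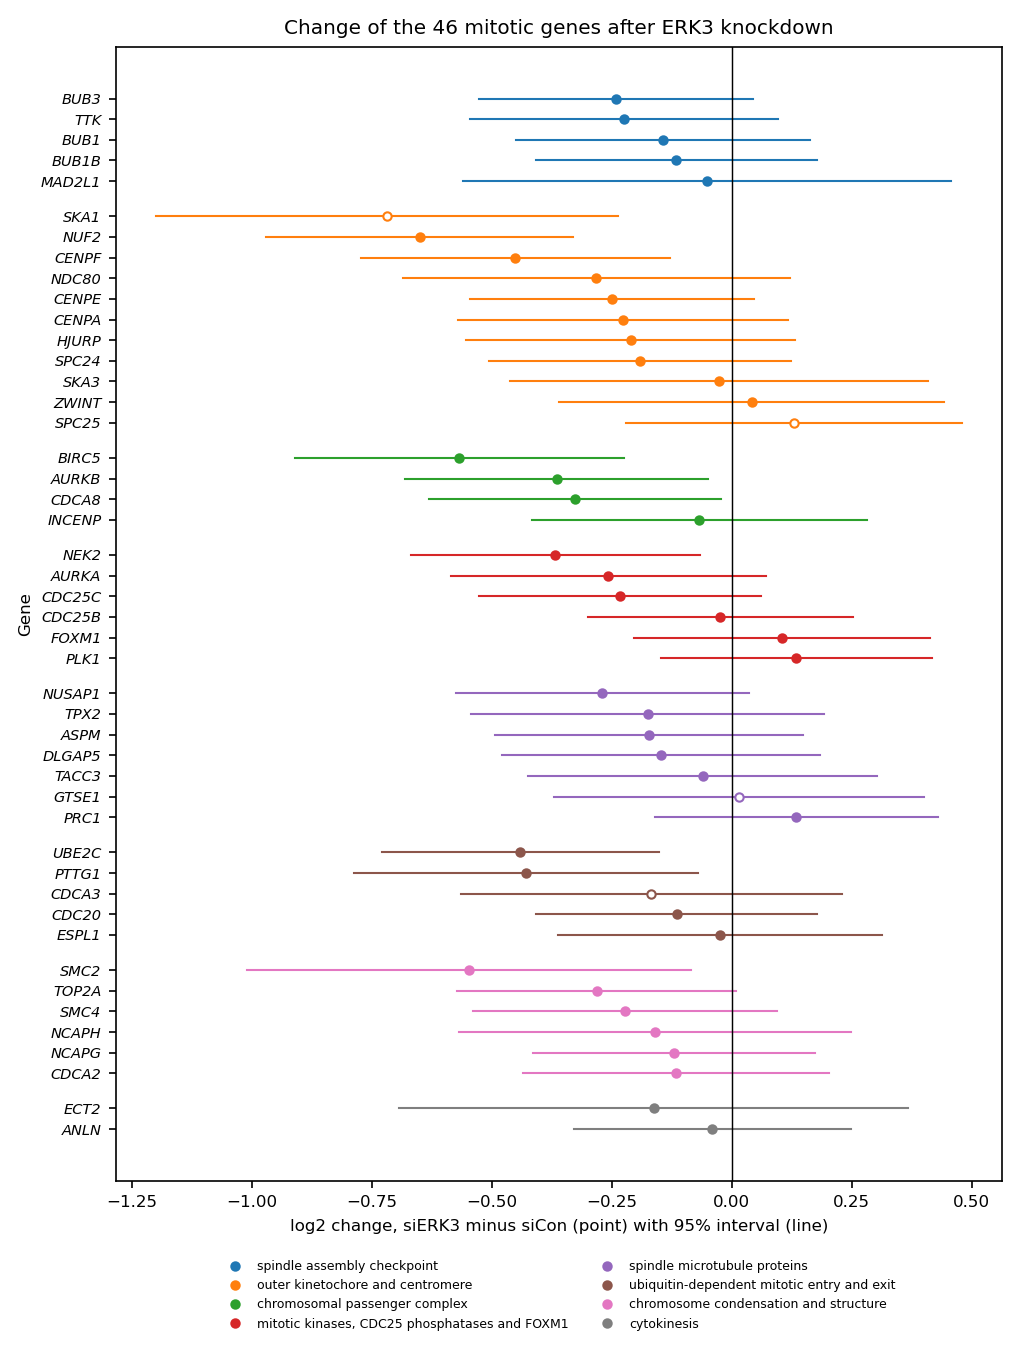
Fitted log2 change (siERK3 minus siCon, 3 arrays each) with its 95% interval for the 46 genes, grouped and coloured by role; open circles are the 4 genes not above background on all 6 arrays. Points left of 0 are lower in siERK3: 40 of the 46 lie there, and the intervals of 10 genes, NUF2 and BIRC5 among them, do not reach 0.

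At the outer kinetochore, NUF2 had the lowest p of the 46 genes. NUF2 pairs with NDC80, and with SPC24 and SPC25 they form the complex that grips the microtubule end. NUF2 measured 11.72, 11.50 and 11.59 on the siCon arrays and 10.95, 10.80 and 11.11 on the siERK3 arrays. The groups did not overlap, and the siERK3 signal was 63.7% of the control (log2 change -0.65, 95% interval -0.97 to -0.33). NDC80 had a log2 change of -0.28 with overlapping groups, from 9.12, 9.19 and 9.57 to 8.98, 9.26 and 8.79. SPC24 had a change of -0.19, and SPC25 lay below background in both groups. The within-array difference between NUF2 and SPC24 was lower on every siERK3 array than on any siCon array, by 0.46 (exact two-sided permutation p = 0.1, the smallest possible; adjusted 0.25 over 5 pairs examined after the values were seen). Against NDC80 the difference was 0.37, with overlapping groups (exact permutation p = 0.3; adjusted 0.3).

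CENPF, a large protein of the outer kinetochore corona that accumulates in G2, measured 13.24, 12.91 and 13.24 in siCon and 12.71, 12.64 and 12.67 in siERK3. The siERK3 values were close together and below every control, for a log2 change of -0.45 (SE 0.14; limma's adjusted p = 0.213). SKA1, a subunit of the complex that helps kinetochores follow shrinking microtubules, had values of 6.93, 6.32 and 7.09 against 6.27, 5.92 and 5.99. All of these lie below background, so no fold is given, and SKA3 of the same complex had a log2 change of -0.026. CENPE, the kinetochore motor that moves chromosomes to the spindle equator, had a change of -0.25 with groups that did not overlap. CENPA, the centromeric histone H3 variant, and its chaperone HJURP had changes of -0.23 and -0.21, and ZWINT, which links the kinetochore to the checkpoint, of 0.041. Of the 11 genes in this group 9 were lower in the fit and 2 higher, with a median of -0.23.

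The chromosomal passenger complex corrects faulty attachments and later directs cytokinesis, with AURKB as its kinase, INCENP as its scaffold, and BIRC5 (survivin) and CDCA8 (borealin) as the subunits that place it at centromeres. BIRC5 measured 9.09, 9.27 and 9.46 in siCon and 8.74, 8.83 and 8.54 in siERK3, which is 67.5% of the control signal (log2 change -0.57, SE 0.15; adjusted p = 0.140 in limma). AURKB went from 10.66, 10.38 and 10.36 to 10.11, 10.04 and 10.16, a log2 change of -0.36. CDCA8 went from 10.43, 10.69 and 10.55 to 10.26, 10.14 and 10.30, a change of -0.33. In these 3 subunits no siERK3 value reached a siCon value. INCENP had overlapping values of 11.62, 11.52 and 11.87 against 11.80, 11.52 and 11.49 and a log2 change of -0.067. The within-array difference between BIRC5 and INCENP was lower by 0.50 in siERK3 without overlap (exact two-sided permutation p = 0.1, adjusted 0.25 over the 5 pairs). For AURKB and CDCA8 against INCENP the groups overlapped, with exact permutation p of 0.3 and 0.2 (adjusted 0.3 for both). With 3 against 3 arrays that p cannot go below 0.1, so the test cannot decide whether INCENP differs from its partners.

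**Figure D3:**
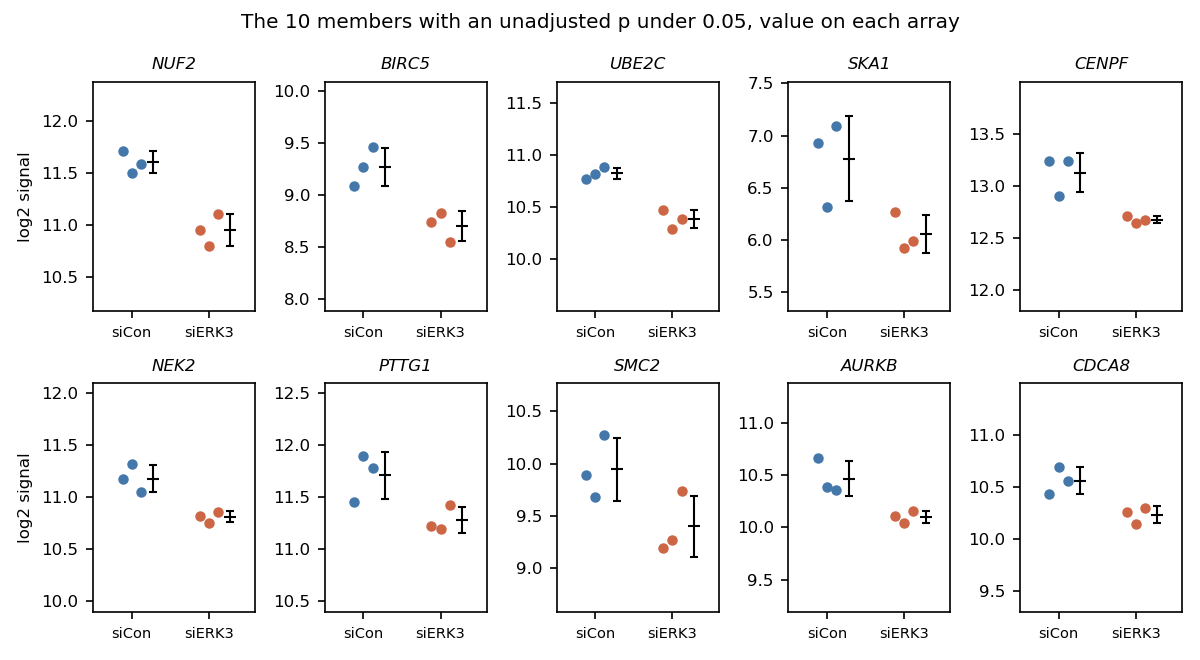
Log2 signal on each array for the 10 genes with an unadjusted p under 0.05, blue for siCon and orange for siERK3, with the mean and SD (n = 3) beside the points; every panel spans the same log2 range. All 3 siERK3 points lie below all 3 siCon points in each panel but SMC2, where 1 siERK3 array (9.74) lies above the lowest siCon array (9.68).

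Among the factors that mark proteins for destruction, UBE2C, the ubiquitin-conjugating enzyme of the anaphase-promoting complex, measured 10.77, 10.82 and 10.88 in siCon and 10.47, 10.29 and 10.39 in siERK3. Its replicates were tight in both groups and did not overlap (log2 change -0.44, SE 0.13; adjusted p = 0.173 in limma). PTTG1, the securin that restrains separase until anaphase, went from 11.45, 11.90 and 11.77 to 11.22, 11.19 and 11.43. Its lowest siCon value and highest siERK3 value nearly touched, and the log2 change was -0.43. Separase itself, encoded by ESPL1, had a log2 change of -0.024, and CDC20, the activator of the complex that the checkpoint restrains, of -0.12. CDCA3, an F-box protein of mitotic entry, had a change of -0.17 near the background level.

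In the chromosome structure group, SMC2, the condensin ATPase subunit, measured 9.89, 9.68 and 10.27 in siCon and 9.19, 9.27 and 9.74 in siERK3. These groups overlapped through siERK3 3, and the log2 change was -0.55 (SE 0.20; limma's adjusted p = 0.288). Its partner SMC4 had a log2 change of -0.22, and the condensin I subunits NCAPG and NCAPH of -0.12 and -0.16. TOP2A, the topoisomerase that untangles sister chromatids, went from 14.06, 13.89 and 14.09 to 13.71, 13.74 and 13.75, without overlap, a change of -0.28. CDCA2, which brings protein phosphatase 1 to chromatin, had a change of -0.12, so that all 6 genes of this group had a negative fitted change.

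The mitotic kinases, CDC25 phosphatases and FOXM1 had fitted changes of both signs, 4 negative and 2 positive. NEK2, a centrosome kinase that helps separate the spindle poles, measured 11.17, 11.31 and 11.04 in siCon and 10.81, 10.75 and 10.86 in siERK3, a log2 change of -0.37 without overlap (SE 0.13; limma's adjusted p = 0.277). AURKA, the spindle pole kinase, had a log2 change of -0.26, and CDC25C, a phosphatase that activates the mitotic cyclin-dependent kinase, of -0.23, both without overlap. PLK1, the kinase that acts from mitotic entry to cytokinesis, measured 14.67, 14.56 and 14.52 in siCon and 14.70, 14.71 and 14.74 in siERK3, for a log2 change of 0.13 (95% interval -0.15 to 0.42). FOXM1, the transcription factor of many genes listed here, had a change of 0.10 (SE 0.14; limma's adjusted p = 0.804), and CDC25B, another CDC25 phosphatase, of -0.024.

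The checkpoint genes had changes of -0.052 to -0.24, all negative and 0 of 5 at an unadjusted p under 0.05. BUB3, the adaptor that carries BUB1 and BUB1B to kinetochores, measured 14.44, 14.49 and 14.57 against 14.29, 14.32 and 14.18. These values did not overlap, and its log2 change of -0.24 had an adjusted p of 0.468 in limma. TTK (MPS1), the kinase that starts the checkpoint signal, had a change of -0.23, BUB1 of -0.14, BUB1B (BUBR1) of -0.12 and MAD2L1, which inhibits CDC20, of -0.052. Among spindle microtubule proteins, NUSAP1, which bundles microtubules near chromatin, went from 12.89, 12.67 and 12.88 to 12.61, 12.59 and 12.44, a change of -0.27 without overlap. The AURKA activator TPX2 (-0.18), the spindle pole protein ASPM (-0.17), DLGAP5 (-0.15) and TACC3 (-0.061) had smaller negative changes, PRC1, the bundler of the central spindle, a positive one of 0.13, and GTSE1 lay below background. In cytokinesis, ECT2, the exchange factor that activates RhoA, measured 11.12, 10.15 and 10.86 against 10.66, 10.47 and 10.51. Its siCon values spread wider than the siERK3 ones, and its change of -0.16, like that of the scaffold ANLN (-0.040), was within the spread between replicates.

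Array by array, the median deviation of the 46 genes from their own means over the 6 arrays was 0.11, -0.00094 and 0.17 for siCon 1, siCon 2 and siCon 3, and -0.061, -0.11 and -0.12 for siERK3 1, siERK3 2 and siERK3 3. All 3 siERK3 arrays were therefore below all 3 siCon arrays, but siCon 2 lay closer to siERK3 1 than to siCon 3. On siCon 2, 23 of the 46 genes were below their own mean, compared with 11 and 10 on the other siCon arrays and 28, 37 and 40 on siERK3 1, 2 and 3. Over all genes tested the array medians lay between -0.011 and 0.0070.

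**Figure D4:**
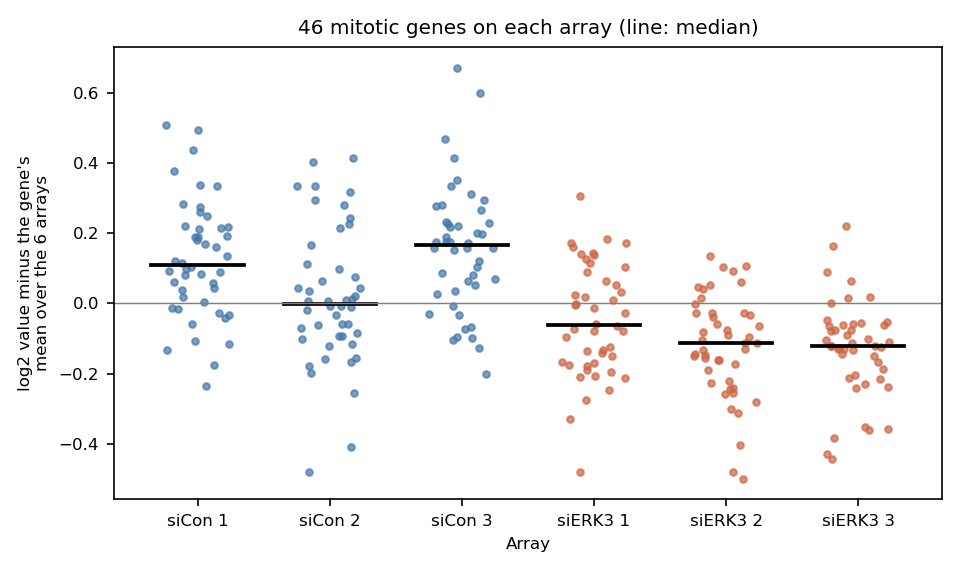
Deviation of each of the 46 genes from its mean over the 6 arrays (log2, vertical axis) on each array (horizontal axis), blue for siCon and orange for siERK3, with the median as a black line. The medians are 0.11, -0.00094 and 0.17 on the siCon arrays and -0.061, -0.11 and -0.12 on the siERK3 arrays.

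The calls depended on how the variance was modelled and on which genes were tested. NUF2 passed when the test was limited to genes whose mean level exceeded the 30th percentile (adjusted p = 0.0410 in limma) or above the median (0.0151), and with a mean-variance trend and robust eBayes (0.00309), where 722 genes were called in place of 169. BIRC5 and UBE2C passed above the median (0.0344 and 0.0409) and with the trend (0.0495 and 0.0440), and CENPF with the trend (0.0152). NUF2, BIRC5, UBE2C, CENPF and SKA1 kept an unadjusted p under 0.05 in all 6 fits that left out 1 array, AURKB, NEK2 and SMC2 in 3, PTTG1 in 2 and CDCA8 in 1. The number of lower members at that p fell from 10 to 5 without siERK3 1 or without siERK3 2, fits in which 5.49% and 5.21% of all genes were lower at that p. With the 2 arrays that stood apart left out together, 7 members were lower at that p, against 5.87% of all genes, and the median change was -0.16.

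Of 106 other mitotic genes, grouped into 5 lists, 95 were measured and none passed limma over all genes, ANAPC15 having the lowest adjusted p of 0.0650. These lists too were chosen with earlier results of these data known. Taking an unadjusted p under 0.05, 13 were lower (13.7%, against 6.50% of all genes) and 3 higher. Groups did not overlap for 17 lower genes (17.9%, against 9.70% of all genes) and 5 higher ones. Of the 95 genes 77 were above background on all arrays. Among all genes above background on all arrays the shares were 8.96% lower at that p and 15.0% lower without overlap. The median log2 change of the 95 genes was -0.060, but it differed between lists. Other kinetochore, centromere and checkpoint genes had a median of -0.19 over 27 genes, 6 of them lower at that p (22.2%, against 6.50% of all genes) and 0 higher. CENPU, of the inner kinetochore, had a log2 change of -0.42 and SGO1 (shugoshin), which protects centromeric cohesion, of -0.48. Other spindle, centrosome and cytokinesis genes had a median of -0.092 over 30 genes, with 5 lower (16.7%, against the same 6.50%) and 1 higher. WEE1, the kinase that delays mitotic entry, had a change of -0.76 (SE 0.19; limma's adjusted p = 0.114). PKMYT1, its relative, lay below background on all arrays, at mean levels of 4.07 in siCon and 4.73 in siERK3.

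Subunits of the anaphase-promoting complex had a median of 0.032 over 17 genes, with ANAPC15, which is needed to turn over the checkpoint complex, at 0.76 (SE 0.15; limma's adjusted p = 0.0650) and CDC16 at -0.32. ANAPC15 passed above the 30th percentile (adjusted p = 0.0348 in limma), above the median (0.0119), with the trend (0.00397) and with array weights (0.0378). WEE1 passed above the median (0.0288) and with the trend (0.00652), and CENPU likewise (0.0485 and 0.0462), while STAG2 passed with the trend (0.0439). Cohesin and other condensin subunits had a median of 0.0038 over 15 genes, with STAG2, a cohesin subunit, at 0.37 and NCAPD2, a condensin I subunit, at -0.21. The MuvB and B-MYB genes had a median of 0.050 over 6 genes, with LIN54, the subunit that binds the CHR, at -0.42 and LIN9 at 0.21. LIN54 was above background on all 3 siCon arrays and on 0 siERK3 arrays.

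**Figure D5:**
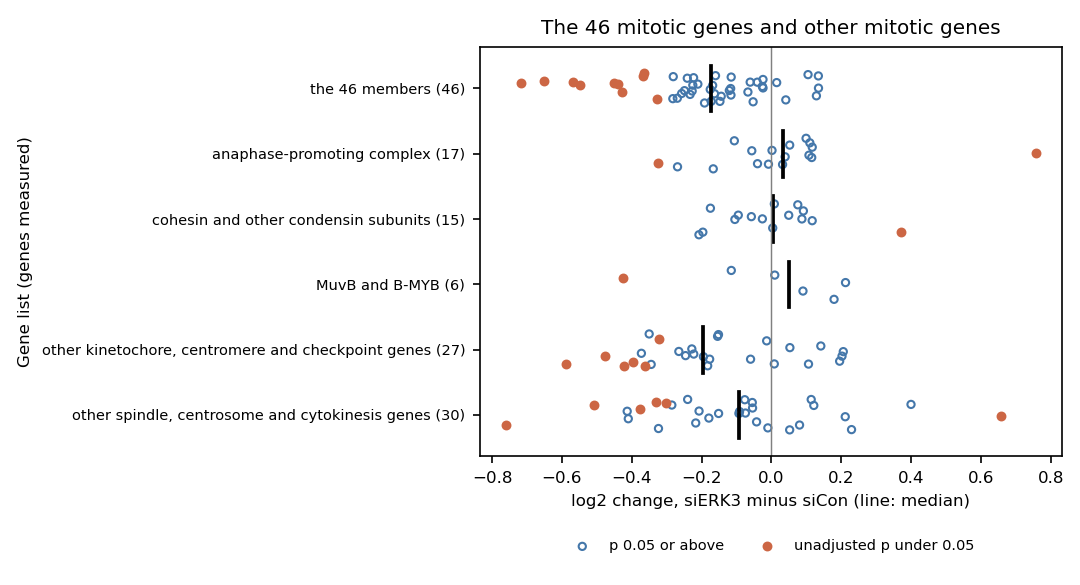
Log2 change (siERK3 minus siCon, horizontal axis) of the 46 genes and of 5 lists of other mitotic genes, 1 point per gene, filled where the unadjusted p in limma is under 0.05, with each list's median as a black line. The medians of the 46 genes (-0.17) and of the other kinetochore genes (-0.19) lie left of 0, and those of the anaphase-promoting complex (0.032) and the MuvB list (0.050) right of it.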

How the data were processed

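Each array was deposited by the authors as log2 values, 1 for each of 24351 probe sets. That the scale is log2 follows from their range, 1.84 to 19.4; software, background correction and normalization: not given in the sources used here. Per the labels' protocols, RNA was extracted with Trizol and labelled with biotin for 1-colour hybridisation. The platform annotation gave 1 symbol for 17709 probe sets and several for 0. The brightest probe set by mean was taken for the 20 genes with more than 1, which left 17687 genes, without a pseudocount or a filter on low values.

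siERK3 was compared with siCon in R 4.3.3 with limma 3.58.1 (lmFit, eBayes, no covariate), adjusted by Benjamini-Hochberg over all genes with a threshold of 0.05. Genes had a median standard error of 0.165; the number of arrays limits the precision. The script was tested on simulated data with independent noise and planted changes larger than that of any member. That test does not show how well changes of the size seen here are detected. Every member may be named; values on each array are given for members at an unadjusted p under 0.05 and for the smallest p in each role, and of the other lists the 2 genes with the smallest p are named. TOP2A, PLK1, INCENP and NDC80 were given array values after their values were seen. Members and lists were chosen with earlier results of these data known. Same-numbered arrays of the groups did not deviate together across all genes (correlations 0.05, -0.12 and -0.04), so the numbers were not taken as pairs. Across the members alone these correlations were 0.41, -0.07 and -0.11. Alternatives were quantile normalization, array medians subtracted, cyclic loess, filters on mean level, averaging a gene's probe sets, robust eBayes with a mean-variance trend, array weights, no moderation, the replicate number as a block and each array left out. Leaving out siCon 2 and siERK3 3 together, and other motif settings, were added after seeing the data.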

Additional observations from a re-analysis of the deposited data

How the results depend on the processing

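Under the 11 kinds of alternative fixed for the fit, MAPK6 kept its direction and its call, and 38 of the 46 members kept their direction under every setting, 34 of them lower and 4 higher. The members passing limma over all genes numbered 1 when genes had to exceed the 30th percentile of mean level, 3 above the median, 4 with a mean-variance trend and robust eBayes, and 0 under the others; the other mitotic genes passing numbered 1, 3 and 4 under these settings and 1 with array weights. Fewer genes were tested under the filters, 12381 and 8843. Over all genes 365, 581 and 722 were called there, 8 without moderation, and 23 to 60 with 1 array left out. Without moderation 1 member, PLK1, was higher at an unadjusted p under 0.05; the cause was not tested. With 1 array left out, the lower members at that p numbered 5 to 10, and the median change of the members was -0.24 to -0.15, the former without siCon 2, the array with the lowest member values in its group. With the replicate number as a block (replicate block), which the labels do not say marks a pairing, 33 genes were called in place of 169, 0 members passed (smallest adjusted p 0.172 in limma, for NUF2) and 9 members were lower at an unadjusted p under 0.05, against 5.73% of all genes; the arrays did not all correlate best with their own number. Changes near 0 turned sign. GTSE1, at 0.015, was -0.0022 with cyclic loess, -0.046 with array weights and -0.092 on the 4 arrays left without siCon 2 and siERK3 3, and SKA3, at -0.026, was 0.026 with array weights and 0.086 on those 4 arrays. With 1 array left out, the log2 change ranged from -0.44 to 0.043 for ECT2, -0.096 to 0.083 for ESPL1, -0.098 to 0.13 for GTSE1, -0.16 to 0.032 for INCENP, -0.27 to 0.11 for MAD2L1, -0.13 to 0.18 for SKA3, -0.15 to 0.065 for TACC3 and -0.076 to 0.18 for ZWINT. At the 99th percentile of the negative controls fewer members were above background on all arrays, 33 in place of 42. Signal over background limits what can be said of SKA1, SPC25, GTSE1 and CDCA3. At the 99th percentile that limit extends to further members, with BIRC5, NDC80 and SMC2 among them.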
